A study of Mus musculus with 2 samples.

Results

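Cd24a, Siglecg, Cd22, Cd72, Cd5, Btla and Ctla4 were measured by droplet single-cell RNA sequencing in peritoneal cavity cells from germ-free mice. They are 7 of the 28692 genes listed for both libraries, and they were chosen by symbol, with earlier results of these data known. Cd24a encodes a small, heavily glycosylated surface protein, and the others encode receptors that restrain B cell signalling. One library was made from Xbp1dIEC mice and one from wild-type (WT) mice, all C57BL/6 males of 10 weeks kept germ-free. Each library pooled equal numbers of cells from 4 mice, so no animal can be told apart and there is 1 sample per genotype. Xbp1dIEC mice lack Xbp1, which encodes a regulator of the response to endoplasmic reticulum stress, in intestinal epithelial cells, which are not among the cells measured here, and the promoter that drives the deletion is not given in the sources used here. Xbp1 itself was at 43.6 CPM (39.4 to 48.3) in Xbp1dIEC B-1 cells and at 29.4 CPM (24.6 to 34.8) in WT B-1 cells, and at 32.0 CPM (23.9 to 42.0) in Xbp1dIEC and 38.5 CPM (31.3 to 46.9) in WT B-2 cells. CPM are the unique molecular identifiers (UMIs) of a gene per 1000000 UMIs of the class of cells. In sums over a class, fewer cells with the RNA and less RNA per cell cannot be told apart, so shares of cells are given beside them.

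B-1 cells are self-renewing B cells of the body cavities that make natural antibody, and in the mouse the B-1a kind is defined by CD5 on its surface. Inhibitory receptors set how strongly a B cell answers its antigen receptor: on their cytoplasmic tails, tyrosine motifs phosphorylated by the kinase Lyn recruit phosphatases such as SHP-1, the product of Ptpn6. Siglec-G, the product of Siglecg, and CD22 are lectins that bind sialic acid, CD24 is a ligand of Siglec-G, and Siglec-G is known for its strong effect on B-1 cells.

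The classes rest on marker UMIs in single cells. B lineage cells had 3 or more UMIs of Cd79a, Cd79b and Ms4a1 and no marker call of another lineage. To count as B-1, a cell needed at least 2 UMIs of Zcwpw1, Zbtb32 and Bhlhe41 together and none of Fcer2a, and B-2 cells, the conventional type, were those with 1 or more UMIs of Fcer2a and at most 1 of the 3 genes. This gave 803 Xbp1dIEC and 466 WT B-1 cells, 317 and 450 B-2 cells, and 832 and 841 B lineage cells in neither class, called other B. B-1 cells were 41.1% of the Xbp1dIEC and 26.5% of the WT cells in these 3 classes. The gate gene Zcwpw1 was itself higher in Xbp1dIEC B-1 cells. Barcodes with both B and T markers, left out, were 193 in Xbp1dIEC and 380 in WT. The part of either in this share was not tested. The names held against markers outside the gates. Ahnak2 was at 58.5 CPM in Xbp1dIEC and 90.3 CPM in WT B-1 cells, against 2.46 and 6.22 CPM in B-2 cells. Ighd, the IgD heavy chain, was at 117 and 141 CPM in B-1 cells, against 619 and 680 CPM in B-2 cells. Cells that met the gates of 2 lineages, 354 in Xbp1dIEC and 612 in WT, were left out as mixed.

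The 2 libraries held 49703442 UMIs in 6246 Xbp1dIEC barcodes and 56229330 UMIs in 6204 WT barcodes, with medians of 7279.5 and 8323.5 UMIs per barcode. After the filters 6111 Xbp1dIEC and 6058 WT cells remained, and 58 barcodes occurred in both libraries. The libraries stood apart in RNA quality, since 1153 Xbp1dIEC and 425 WT barcodes had 5% or more mitochondrial UMIs. All intervals are exact 95% intervals that cover counting error only. Log2 ratios had 1 CPM added to each level, while their intervals and the stated folds did not. The 1.5-fold cut was set on the log2 ratios. For sparse genes a ratio and its interval are thus on unlike scales. With 1 library per genotype the differences have no replicate check, and no p-value is given.

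Cd24a was the member that differed most between the genotypes. B-1 cells held 1433 Cd24a UMIs in Xbp1dIEC and 1732 in WT, although the Xbp1dIEC class was the larger in cells and in total UMIs. This came to 165 CPM (156 to 173) in Xbp1dIEC B-1 cells and 377 CPM (359 to 395) in WT B-1 cells. The level was 2.29-fold lower in Xbp1dIEC, a log2 ratio of -1.19 (-1.30 to -1.09), the 5th lowest of the 6363 genes compared in B-1 cells. In other B cells Cd24a was likewise lower, at 180.2 CPM (169 to 192) in Xbp1dIEC and 361 CPM (346 to 378) in WT, a log2 ratio of -1.0 (-1.11 to -0.89). In B-2 cells it was at 303 CPM (277 to 331) in Xbp1dIEC and 313 CPM (292 to 336) in WT, a log2 ratio of -0.05 (-0.22 to 0.11), so the ratio of B-1 cells lay outside the interval in B-2 cells.

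Siglecg, which encodes the Siglec that binds CD24, was nearly equal in both libraries. It was at 451 CPM (437 to 465) in Xbp1dIEC and 452 CPM (433 to 472) in WT B-1 cells, a log2 ratio of -0.0047 (-0.08 to 0.07). B-2 cells had 461 CPM (428 to 495) in Xbp1dIEC and 444 CPM (418 to 470) in WT, and other B cells 470 CPM in Xbp1dIEC and 469 CPM in WT. The interval of its ratio included 0 in all 3 B cell classes.

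Cd22, a sialic acid-binding receptor that dampens calcium signals from the antigen receptor, was also level in B-1 cells. It had 110.0 CPM (103 to 117) in Xbp1dIEC and 108 CPM (98.9 to 118) in WT B-1 cells, a log2 ratio of 0.02 (-0.13 to 0.18). In B-2 cells it was lower in Xbp1dIEC, at 91.1 CPM (77.0 to 107) in Xbp1dIEC and 132 CPM (118 to 147) in WT, a log2 ratio of -0.53 (-0.82 to -0.25).

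Cd72, a C-type lectin-like receptor that binds the semaphorin encoded by Sema4d, was sparse in B-1 cells. It had 72 UMIs or 8.27 CPM (6.47 to 10.4) in Xbp1dIEC and 68 UMIs or 14.8 CPM (11.5 to 18.8) in WT B-1 cells, a log2 ratio of -0.77 (-1.34 to -0.34). Other B cells had 17.2 CPM (14.0 to 21.0) in Xbp1dIEC and 31.4 CPM (26.9 to 36.4) in WT, a log2 ratio of -0.83 (-1.24 to -0.50). In B-2 cells the values were 44.9 CPM (35.2 to 56.5) in Xbp1dIEC and 56.0 CPM (47.2 to 65.9) in WT, and the interval of the ratio included 0.

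Ctla4, a receptor for CD80 and CD86 best known from T cells, was present at low level in B-1 cells. It had 63 UMIs or 7.24 CPM (5.56 to 9.26) in Xbp1dIEC and 70 UMIs or 15.2 CPM (11.9 to 19.3) in WT B-1 cells, a log2 ratio of -0.98 (-1.59 to -0.56). B-2 cells held 4 UMIs in Xbp1dIEC and 11 in WT, too few to show a difference. Btla, a receptor for the herpesvirus entry mediator HVEM, was at 38 CPM (34.0 to 42.3) in Xbp1dIEC and 49.0 CPM (42.8 to 55.8) in WT B-1 cells, a log2 ratio of -0.36 (-0.61 to -0.11). In B-2 cells Btla was at 67.1 CPM (55.1 to 80.9) in Xbp1dIEC and 94.5 CPM (83.0 to 107) in WT, a log2 ratio of -0.49 (-0.83 to -0.16).

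Cd5, a scavenger receptor family protein that raises the threshold of antigen receptor signalling, was hardly detected in B cells by this 3′ assay. B-1 cells held 27 UMIs in Xbp1dIEC and 28 in WT, or 3.10 CPM (2.04 to 4.51) and 6.09 CPM (4.05 to 8.81). B-2 cells held 3 UMIs in Xbp1dIEC and 2 in WT. At a fixed depth of 2000 UMIs per cell, 0.872% of Xbp1dIEC and 0.858% of WT B-1 cells had a Cd5 UMI, and no B-2 cell had one in either library, with upper bounds of 1.16% and 0.816%. Cd8 T cells, which express Cd5, had 39.0 CPM (21.8 to 64.3) in Xbp1dIEC and 46.7 CPM (30.2 to 68.9) in WT. Other T cells held 38 Cd5 UMIs in Xbp1dIEC and 48 in WT.

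**Figure D1:**
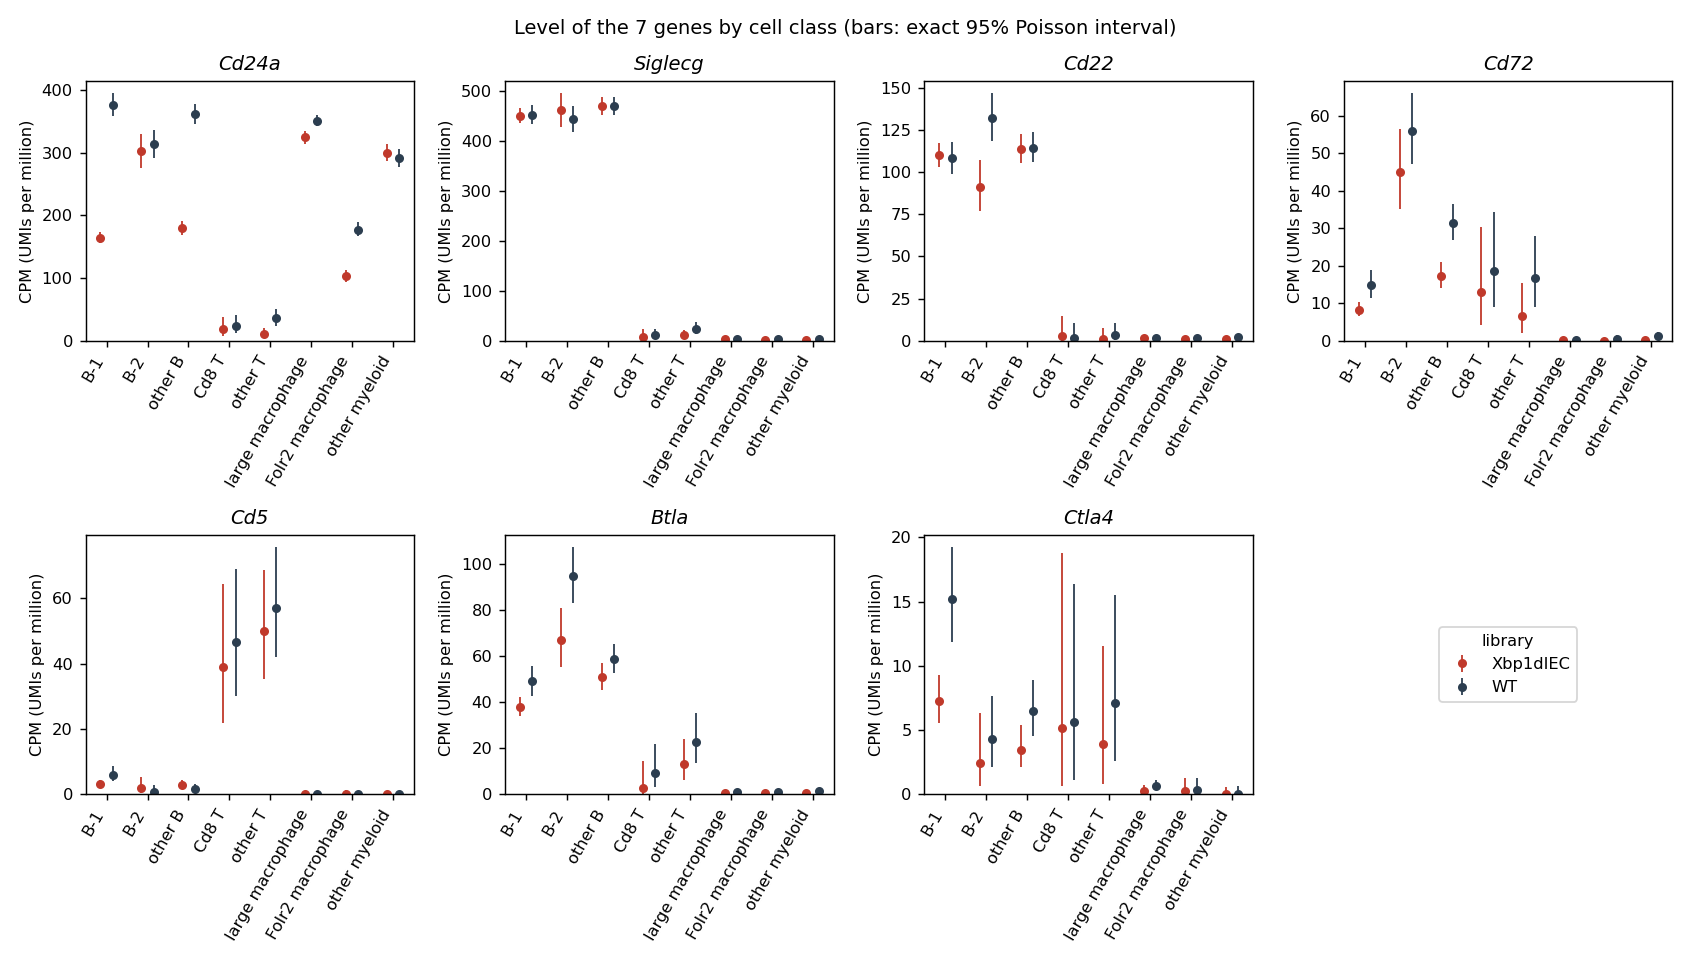
Level of each of the 7 genes in CPM (y axis, linear, a scale of its own per gene) in 8 cell classes (x axis), with Xbp1dIEC in red left of WT in dark blue; points are class sums and bars are exact 95% Poisson intervals. Cd24a in B-1 cells is at 165 CPM in Xbp1dIEC and 377 CPM in WT, while Siglecg is at 451 and 452 CPM, and Cd24a is the member with high levels in both B cells and macrophages.

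Genes were compared where they had 20 or more UMIs over both libraries and 10 CPM in the higher one, and a fold of 1.5 in either direction was used as the cut. In B-1 cells 2.56% of the 6363 genes compared were lower and 2.64% higher in Xbp1dIEC by that fold, and the median log2 ratio was -0.01. Cd24a, Cd72 and Ctla4 were past it in the lower direction. Cd72 was within it, at -0.42, with a mitochondrial limit of 5%, and at -0.44 with 10 CPM added to each level, where Ctla4 was at -0.55 and also within it. Cd72 and Ctla4 met the 10 CPM minimum through WT alone, and Cd5 did not meet it, so their count says nothing beyond their own values. In B-2 cells 5.05% of 6678 genes were past the fold in the lower and 3.23% in the higher direction, and none of the 5 members compared was. In other B cells the background was 2.05% lower and 1.55% higher of 6525 genes, and Cd24a and Cd72 were lower by the fold.

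The lower Cd24a level in Xbp1dIEC B-1 cells was not carried by a few cells, though it was uneven over the class, as given by state below. At 2000 UMIs per cell, 24.5% (21.6 to 27.7) of Xbp1dIEC and 43.8% (39.2 to 48.4) of WT B-1 cells had a Cd24a UMI, and without thinning 60.02% and 81.8% did. Cells with 2 thinned UMIs were 4.36% in Xbp1dIEC and 11.6% in WT, cells with 3 were 1.99% and 5.58%, and cells with 4 or more 0.872% and 2.79%. Every step above 0 was less filled in Xbp1dIEC. Less RNA in every cell and another mix of cells cannot be told apart by these shares. In T cells other than Cd8 T cells, where little Cd24a was measured, the thinned share was 1.69% in Xbp1dIEC and 1.91% in WT. In B-2 cells the thinned share was 43.8% (38.3 to 49.5) in Xbp1dIEC and 48.4% (43.7 to 53.2) in WT. The thinned share for Siglecg in B-1 cells was 59.2% in Xbp1dIEC and 58.2% in WT.

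**Figure D2:**
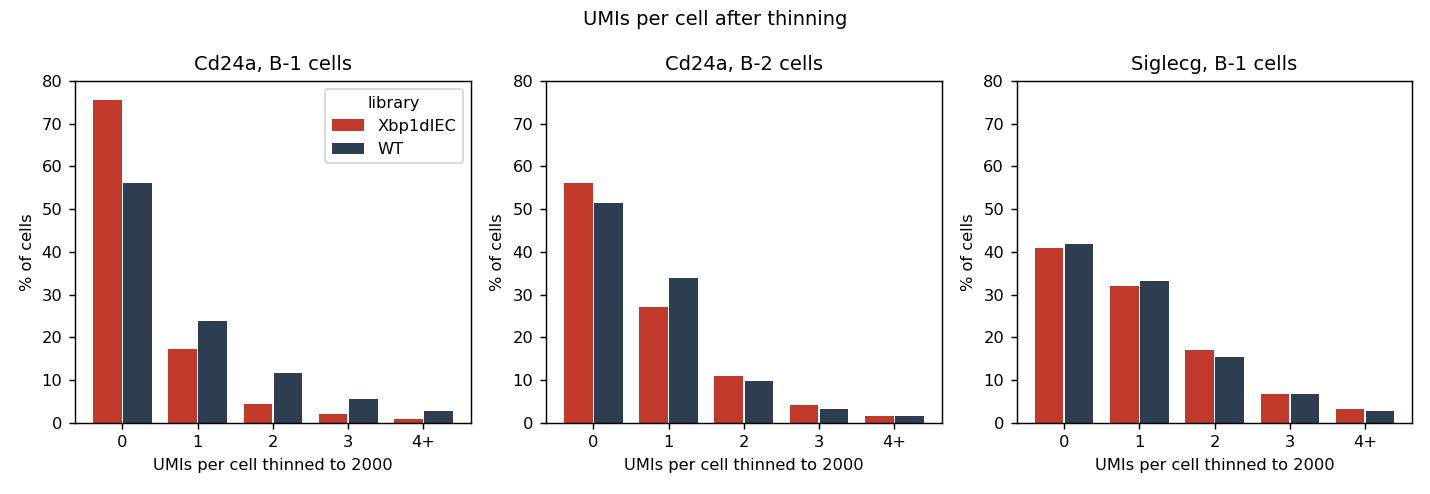
Percent of cells (y axis) with 0, 1, 2, 3 or 4 and more UMIs (x axis) after thinning each cell to 2000 UMIs, for Cd24a in B-1 and B-2 cells and Siglecg in B-1 cells; Xbp1dIEC bars in red stand left of WT bars in dark blue. Cells without a Cd24a UMI are 75.5% of Xbp1dIEC and 56.2% of WT B-1 cells, while the Siglecg bars of both libraries nearly match.

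Cd24a and Siglecg UMIs fell on the same B-1 cells about as often as their shares alone would give. Both were seen in 14.3% of thinned Xbp1dIEC and 25.3% of WT B-1 cells, where the product of the 2 shares was 14.5% in Xbp1dIEC and 25.5% in WT.

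Among B lineage cells without an Fcer2a UMI, the Cd24a difference was present at every count of gate UMIs. Cells with 1 gate UMI, just outside the B-1 gate, had 182 CPM in Xbp1dIEC and 333 CPM in WT. Those with 2, just inside, had 158 CPM in Xbp1dIEC and 520.5 CPM in WT. Cells with 0 gate UMIs had 207 CPM in Xbp1dIEC and 408 CPM in WT, those with 3 had 179 and 330 CPM, and those with 4 or more had 163 and 340 CPM. Xbp1dIEC was lower at each of the 5 steps. Zcwpw1, one of the 3 gate genes, was itself higher in Xbp1dIEC B-1 cells, at 466 CPM against 283 CPM in WT.

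Within each library, Cd24a stood on opposite sides in B-1 and B-2 cells. In Xbp1dIEC it was lower in B-1 than in B-2 cells, with a log2 ratio of -0.88 (-1.03 to -0.73), and in WT it was higher, with 0.27 (0.14 to 0.39), though -0.018 when both gates were set on thinned cells. All genes compared had a median of -0.12 in Xbp1dIEC and -0.16 in WT in this contrast, and B-1 cells were deeper, with medians of 9077 against 3990 UMIs per cell in Xbp1dIEC and 8609 against 4549 in WT. The gate itself sorts cells by depth. In B lineage cells without Fcer2a the median rose from 4454 UMIs at 0 gate UMIs to 11025 at 4 or more in Xbp1dIEC. In WT it rose from 4334.5 to 10068. Cd22 crossed over the other way, with 0.27 (0.02 to 0.53) in Xbp1dIEC and -0.28 (-0.49 to -0.08) in WT. With the gates on all kept cells the WT ratio of Cd22 was -0.06. Siglecg was at -0.03 (-0.15 to 0.08) in Xbp1dIEC, or 0.12 with median ratio scaling, and at 0.03 (-0.08 to 0.13) in WT.

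The sparser receptors kept their side in both libraries. Cd72 was lower in B-1 than in B-2 cells by 5.43-fold in Xbp1dIEC and 3.78-fold in WT, with log2 ratios of -2.31 (-2.93 to -1.95) and -1.85 (-2.36 to -1.49). Btla was lower too, at -0.80 (-1.14 to -0.49) and -0.93 (-1.22 to -0.68). Ctla4 was higher in B-1 cells, at 1.25 (0.13 to 3.48) in Xbp1dIEC and 1.62 (0.91 to 2.90) in WT. Cd5 had 27 UMIs in B-1 against 3 in B-2 cells in Xbp1dIEC, and 28 against 2 in WT. Only the WT interval of its ratio lay above 0, with 2.00 (0.98 to 6.08), or 7.83-fold without the added CPM. In Xbp1dIEC 3 of the 5 members compared were lower by 1.5-fold, where 13.4% of all genes were lower and 7.19% higher. In WT 2 of 6 were lower and 1 higher, where 12.1% of all genes were lower and 5.09% higher. Cd72 in Xbp1dIEC met the minimum of 10 CPM through B-2 cells alone and Ctla4 in WT through B-1 cells alone. These counts say nothing beyond the values of the members.

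By GENCODE M21 the genes lie on GRCm38 at chr10:43578284-43584265 on the plus strand for Cd24a, chr7:43408204-43418358 plus for Siglecg, chr7:30865402-30880342 minus for Cd22, chr4:43446462-43454628 minus for Cd72, chr19:10717116-10739002 minus for Cd5, chr16:45224315-45257670 plus for Btla and chr1:60887000-60915832 plus for Ctla4. The promoters of Cd72 and Ctla4 are shown because these members stood on opposite sides of the B-1 and B-2 contrast in both libraries, and that of Cd22 because its side differed between the libraries. The windows run from 250 bases before to 50 after the start given by RefSeq on GRCm38.p6, and Cd24a has no entry there. Cd72 (chr4:43454577-43454876, minus strand), Ctla4 (chr1:60908775-60909074, plus strand) and Cd22 (chr7:30878979-30879278, minus strand) follow. Capitals mark matches to 5 B cell-related motifs searched on both strands, namely the octamer ATTTGCAT, the E-box CACGTG, the EBF1 motif CCCNNGGG, the NF-kappaB motif of GGG, any 5 bases and CC, and the Egr motif GCGTGGGCG.
Cd72: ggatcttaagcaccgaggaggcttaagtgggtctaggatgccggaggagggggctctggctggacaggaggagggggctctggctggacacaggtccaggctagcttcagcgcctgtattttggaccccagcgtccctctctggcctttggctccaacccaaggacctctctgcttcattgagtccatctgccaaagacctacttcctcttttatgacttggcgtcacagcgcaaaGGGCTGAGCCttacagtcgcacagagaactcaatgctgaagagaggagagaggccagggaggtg
Ctla4: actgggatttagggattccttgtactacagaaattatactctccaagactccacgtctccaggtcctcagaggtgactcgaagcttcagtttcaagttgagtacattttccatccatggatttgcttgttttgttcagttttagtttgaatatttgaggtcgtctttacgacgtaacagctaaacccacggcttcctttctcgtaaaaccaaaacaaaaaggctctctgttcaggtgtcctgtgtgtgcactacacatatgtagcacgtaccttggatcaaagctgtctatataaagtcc
Cd22: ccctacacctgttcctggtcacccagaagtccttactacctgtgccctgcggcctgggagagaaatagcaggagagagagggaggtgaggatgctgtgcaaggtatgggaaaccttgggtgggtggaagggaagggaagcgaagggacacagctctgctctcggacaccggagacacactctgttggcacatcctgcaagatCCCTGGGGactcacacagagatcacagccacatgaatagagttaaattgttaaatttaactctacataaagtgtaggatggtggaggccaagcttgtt
The Cd72 window had 1 match, to the NF-kappaB motif at base 237, the Cd22 window 1 to the EBF1 motif at base 203, and the Ctla4 window none, counted from 1 at the 5′ end, and no matches overlapped. Of 32851 promoter windows of 300 bases, 50.8% held the NF-kappaB motif, 13.7% the EBF1 motif, 7.15% the E-box, 1.74% the octamer and 0.612% the Egr motif. The windows had 57.7% G and C for Cd72, 42.0% for Ctla4 and 52.3% for Cd22.

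B-1 cells were split into 2 states by gene sets known from earlier results of these data, and Cd24a differed between them. Cells with more UMIs of Ahnak2, Phgdh and Ass1 than of Fbxw13, Prkar2b and Fgd2 numbered 244 in Xbp1dIEC and 249 in WT. Those with the reverse numbered 453 in Xbp1dIEC and 155 in WT, so the states differed in number between the libraries. In 106 Xbp1dIEC and 62 WT B-1 cells the 2 sums were equal, and these cells are in neither state. Their Cd24a was at 179 CPM in Xbp1dIEC and 397 CPM in WT. In the Ahnak2-Phgdh-Ass1 state Cd24a was at 273 CPM (253 to 294) in Xbp1dIEC and 413 CPM (389 to 440) in WT, a log2 ratio of -0.60 (-0.74 to -0.46). In the Fbxw13-Prkar2b-Fgd2 state it was at 109 CPM (101 to 119) in Xbp1dIEC and 313 CPM (286 to 342) in WT, a log2 ratio of -1.51 (-1.69 to -1.34). Cd24a was past the 1.5-fold cut in the second state and just past it in the first. The background was 4.02% of genes lower and 4.38% higher in the first state and 5.46% lower and 5.24% higher in the second. With the states weighted equally its level was 191 CPM in Xbp1dIEC and 363 CPM in WT.

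Between the states of one library, the Ahnak2-Phgdh-Ass1 cells had more Cd24a, with log2 ratios of 1.31 (1.16 to 1.48) in Xbp1dIEC and 0.40 (0.25 to 0.56) in WT. In this contrast 5.12% of genes were lower and 3.59% higher by 1.5-fold in Xbp1dIEC, and 7.15% lower and 4.72% higher in WT. Ctla4 was higher in the same state, at 0.97 (0.29 to 1.89) in Xbp1dIEC and 1.27 (0.45 to 2.42) in WT. Cd5 was too, in WT, with 24 UMIs in this state and 1 in the other, while in Xbp1dIEC the states held 11 and 9 UMIs. Siglecg differed by -0.02 (-0.13 to 0.08) in Xbp1dIEC and -0.23 (-0.37 to -0.10) in WT. B-1 cells with 2 or more UMIs of Mki67, Top2a and Birc5, markers of dividing cells, numbered 33 in Xbp1dIEC and 13 in WT and had Cd24a at 361 CPM (313 to 415) and 808 CPM (684 to 949).

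Mitochondrial share moved with the Cd24a level. Of the B-1 cells, 30.4% in Xbp1dIEC and 10.9% in WT had 5% or more mitochondrial UMIs. In those cells Cd24a was at 90.2 CPM (78.8 to 103) in Xbp1dIEC and 288 CPM (236 to 348) in WT. In cells under 5% it was at 195 CPM (184 to 206) in Xbp1dIEC and 385 CPM (366 to 404) in WT, so Xbp1dIEC was lower on both sides. With both conditions set, the ratio under 5% was -0.49 (-0.63 to -0.34) in the Ahnak2-Phgdh-Ass1 state, no longer past the 1.5-fold cut, and -1.41 (-1.61 to -1.22) in the Fbxw13-Prkar2b-Fgd2 state. Siglecg ran the other way with this share, at 519 CPM in Xbp1dIEC and 587 CPM in WT above the limit and 423 and 440.3 CPM under it. By depth, Cd24a in B-1 cells was at 166 CPM in Xbp1dIEC and 337 CPM in WT in cells under 6000 UMIs, at 193 CPM in Xbp1dIEC and 494 CPM in WT from 6000 to 10000 UMIs, and at 153 CPM in Xbp1dIEC and 322 CPM in WT above. Summed over 8 T cell markers, B-1 cells had 16.3 CPM in Xbp1dIEC and 27.2 CPM in WT, with all 8 above 0, and over 6 macrophage markers 45.0 and 58.1 CPM. Their part in the result was not tested.

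**Figure D3:**
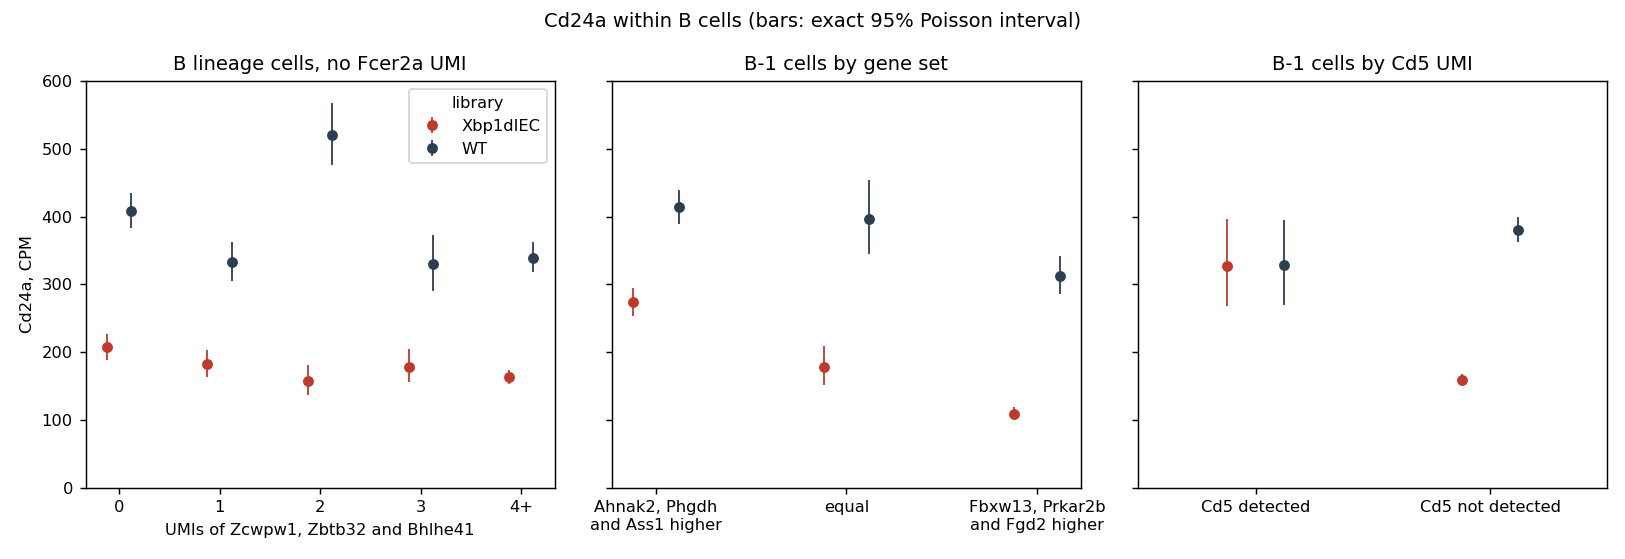
Cd24a level in CPM (y axis) by the number of gate UMIs in B lineage cells without Fcer2a, by the gene set that leads in B-1 cells, and by Cd5 detection in B-1 cells (x axes); Xbp1dIEC in red stands left of WT in dark blue and bars are exact 95% Poisson intervals. Xbp1dIEC is lower at all gate steps and in both states, whereas Cd5-detected B-1 cells, pooled over states, have 327 CPM in Xbp1dIEC and 329 CPM in WT.

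Cd5-detected B-1 cells, those with at least 1 Cd5 UMI, numbered 25 of 803 in Xbp1dIEC and 28 of 466 in WT. At this detection rate the Cd5-negative set also holds cells whose Cd5 RNA was missed. Cd24a was at 327 CPM (268 to 396) in Cd5-detected against 158 CPM (150.0 to 167) in Cd5-negative Xbp1dIEC B-1 cells, a log2 ratio of 1.04 (0.75 to 1.33). In WT it was at 329 CPM (270.2 to 396) in Cd5-detected against 381 CPM (362 to 399.8) in Cd5-negative cells, a log2 ratio of -0.21 (-0.50 to 0.06). Over all B-1 cells the 2 libraries thus had like levels in Cd5-detected cells and differed in Cd5-negative ones. The match did not hold in parts of the set. Cd5-detected cells of the Ahnak2-Phgdh-Ass1 state were at 541 CPM in Xbp1dIEC and 349 CPM in WT. Cells with a Cd5 UMI after thinning were at 202 CPM in Xbp1dIEC and 803 CPM in WT.

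The Xbp1dIEC value rested on few cells. One cell carried 25 of the 105 Cd24a UMIs, and without it the log2 ratio was 0.75 (0.41 to 1.08). Without the cell of 20 UMIs in WT, it was -0.43 (-0.76 to -0.13). With Cd5 detection read from thinned cells, which left 7 Cd5-detected cells in Xbp1dIEC and 4 in WT, the ratio was 0.30 (-0.58 to 1.05) in Xbp1dIEC and 1.10 (0.44 to 1.69) in WT, so the order of the libraries was turned round. Of the Cd5-detected cells, 44.0% in Xbp1dIEC and 85.7% in WT were in the Ahnak2-Phgdh-Ass1 state, against 29.9% and 51.4% of the Cd5-negative cells. Within that state the ratio was 1.07 (0.71 to 1.41) in Xbp1dIEC and -0.28 (-0.58 to 0.01) in WT. In the other state 8 Cd5-detected Xbp1dIEC cells had a ratio of -0.63 (-1.95 to 0.42). A mitochondrial share of 5% or more was seen in 2 of the 25 Cd5-detected and 242 of the 778 Cd5-negative Xbp1dIEC cells, and under that limit the ratio was 0.80 (0.49 to 1.09). The sets also differed in depth, with medians of 10019 against 9032 UMIs in Xbp1dIEC and 10167 against 8472 UMIs in WT. T cell genes did not go the same way in both libraries. In Cd5-detected against Cd5-negative Xbp1dIEC cells Lck was at 24.9 against 5.25 CPM, Thy1 at 15.6 against 2.15 CPM and Cd3d at 9.35 against 1.07 CPM. For each of these the interval of the ratio lay above 0, but it does not cover UMIs that share a cell. The Cd5-detected levels rest on 8 Lck UMIs in 6 cells, 5 Thy1 UMIs in 2 cells and 3 Cd3d UMIs in 3 cells. Trac was at 6.23 against 0.239 CPM, from 2 UMIs on each side, and Cd3g at 3.12 against 5.01 CPM, with 1 UMI in the Cd5-detected cells. Cd79a, a B lineage marker, had a log2 ratio of -0.44 (-0.58 to -0.31) in Xbp1dIEC and -0.07 (-0.18 to 0.04) in WT. In WT Cd3g was at 17.8 against 7.28 CPM and Lck at 8.88 against 9.16 CPM, while Thy1, Cd3d and Trac had no UMI in the Cd5-detected cells. Cd3e had no UMI in the Cd5-detected cells of either library. Without dividing cells, those with 2 or more UMIs of Mki67, Top2a and Birc5, the Cd24a ratio was 0.80 (0.44 to 1.16) in Xbp1dIEC. In WT it was then -0.37 (-0.69 to -0.07). The part of state, quality, depth, cell division and T cell RNA in the Cd24a difference was not tested.

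Of the other 5 members, Cd22 in Xbp1dIEC alone had a ratio by Cd5 detection whose interval lay on one side of 0. Siglecg was at 424 against 452 CPM in Xbp1dIEC and 435 against 453 CPM in WT, and both intervals of the ratio included 0. Cd22 was at 62.3 against 112 CPM in Xbp1dIEC, a log2 ratio of -0.83 (-1.56 to -0.21) from 20 UMIs, and at 115 against 108 CPM in WT, at 0.10 (-0.41 to 0.57). With Cd5 detection on thinned cells the Xbp1dIEC interval of Cd22, -3.63 to 0.20 from 3 UMIs, included 0. The intervals of Btla, Cd72 and Ctla4 included 0 in both libraries. Over all genes, 15.5% in Xbp1dIEC were lower and 14.7% higher by 1.5-fold, and in WT 15.4% lower and 11.6% higher. Of 5887 genes compared in both libraries, 124 were higher and 182 lower in both. The overlap that the shares of the single libraries would give by themselves was not worked out, so nothing is read from these counts. The genes highest in both libraries by the smaller of the 2 ratios were Ube2c, Cdk1, 2700097O09Rik, Ccnb2, Mki67, Tyms, Rfc5 and Ikbip, of which Ube2c, Cdk1, Ccnb2 and Mki67 act in cell division. Mki67 was at 46.7 against 9.18 CPM in Xbp1dIEC and 20.7 against 7.99 CPM in WT. Cells with 2 or more UMIs of Mki67, Top2a and Birc5 were 16.0% of the Cd5-detected and 3.73% of the Cd5-negative cells in Xbp1dIEC. In WT these shares were close, at 3.57%, which is 1 cell, and 2.74%. The lowest were Mzt2, Foxn2, Fcgr3, Zscan26, Fbxw13, Wdr5, Asb13 and Rnf170. Fcgr3, a low-affinity IgG receptor chain, was at 3.12 against 17.3 CPM in Xbp1dIEC and had no UMI in the WT Cd5-detected cells, where 3 UMIs would be 8.88 CPM, against 29.1 CPM. Each of these levels rests on few UMIs of 25 and 28 cells.

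Outside the B lineage Cd24a was the member found in macrophages. It was at 325 CPM (315 to 335) in Xbp1dIEC and 351 CPM (343 to 360.2) in WT large macrophages, cells with Gata6 or Timd4, a log2 ratio of -0.11 (-0.17 to -0.06), where the median of all genes was -0.08. With the gate on thinned cells that ratio was 0.03, and by 1.5-fold 1.97% of genes were lower and 0.186% higher. Macrophages with Folr2, Retnla or Cbr2 had 103 CPM (93.6 to 113) in Xbp1dIEC and 178 CPM (167 to 189) in WT, a log2 ratio of -0.78 (-0.95 to -0.62), where 3.72% of genes were lower and 0.99% higher by 1.5-fold. With the gate on thinned cells this ratio was -0.49, within the 1.5-fold cut. Other myeloid cells had 299.6 CPM (286 to 313) in Xbp1dIEC and 292 CPM (278 to 306) in WT, against a background of 3.17% lower and 0.674% higher. T cells other than Cd8 T cells held 8 UMIs in Xbp1dIEC and 30 in WT, 12 of the WT UMIs in 1 cell, in a class where 8.29% of genes were lower and 8.09% higher by 1.5-fold. In Cd8 T cells, where 11.9% were lower and 7.97% higher, Cd24a held 7 UMIs in Xbp1dIEC and 13 in WT.

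Siglecg, Cd22 and Btla were near 0 in myeloid cells. Siglecg was at 3.04 CPM in Xbp1dIEC and 3.34 CPM in WT large macrophages, Cd22 at 1.64 and 1.70 CPM and Btla at 0.739 and 0.963 CPM, levels too low to be read as expression. Btla was found in T cells other than Cd8 T cells, at 13.2 CPM (6.31 to 24.2) in Xbp1dIEC and 22.6 CPM (13.6 to 35.2) in WT. Cd72 had 6 UMIs in 29 Xbp1dIEC and 8 UMIs in 24 WT NK cells, or 64.1 CPM (23.5 to 139.6) and 83.1 CPM (35.9 to 164).

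Over 16 points, 8 classes in 2 libraries, the genes most like Cd24a in log2(CPM + 1) among 3290 genes were Lyn, the kinase that phosphorylates inhibitory tails, with Pearson's r of 0.961, Rfk with 0.956, Dok3 with 0.948, Cd81 with 0.946 and Stx7 with 0.937. Those most like Siglecg were Sfn with 0.992, Ighm with 0.991, Ptp4a3 with 0.988 and Ralgps2 and Arpc5l with 0.987. Points of one library share its depth and those of one lineage most of their genes, so these values are a description.

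Few genes around the receptors were past 1.5-fold between the genotypes in B-1 cells, where 2.56% of all genes were lower and 2.64% higher, so the counts below are near the background. Of 14 inhibitory signalling genes 11 were compared, none was past 1.5-fold, and their median log2 ratio was -0.07. Lyn was at 139 CPM in Xbp1dIEC and 146 CPM in WT, Ptpn6 at 96.4 and 121 CPM, and Dok3, an adaptor that restrains antigen receptor signals, at 102 and 143 CPM. Of 17 other inhibitory receptors 6 were compared and none was past the fold, with a median of -0.03, among them Fcgr2b, the inhibitory IgG receptor, at 70.5 CPM in Xbp1dIEC and 71.0 CPM in WT. Of 12 ligands and ligand makers 10 were compared, with a median of -0.02, and Cd200 was lower by the fold, at 14.8 CPM in Xbp1dIEC and 23.1 CPM in WT. St6gal1, the enzyme that makes the CD22 ligand, was at 75.7 CPM in Xbp1dIEC and 51.1 CPM in WT, a log2 ratio of 0.56. Of 14 activating antigen receptor genes 12 were compared, with a median of -0.21, and Pik3cd was higher, at 95.1 CPM in Xbp1dIEC and 55.7 CPM in WT. Of 10 tolerance and feedback genes 2 were compared, Nfkbia and Nfkbid, and neither was past the fold, with a median of -0.04.

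In B-2 cells 1 of 5 other inhibitory receptors compared was past the fold, Lilrb4a, at 6.15 CPM in Xbp1dIEC and 12.8 CPM in WT, and 1 of 3 tolerance genes, Nr4a1, at 4.31 and 10.1 CPM, where 5.05% of all genes were lower and 3.23% higher. Both met the 10 CPM minimum through WT alone, so their count says nothing beyond their own values. None of the 12 inhibitory signalling genes, 9 ligands and ligand makers and 13 activating genes compared was. Between B-1 and B-2 cells more of these genes were past the fold, as were more of all genes, 13.4% lower and 7.19% higher in Xbp1dIEC and 12.1% lower and 5.09% higher in WT. Ptpn6 was at 96.4 against 176 CPM in Xbp1dIEC and 121 against 203 CPM in WT, and the adaptor Pag1 was lower as well. Ptpn22, a phosphatase that acts against antigen receptor signals, was higher in B-1 cells, at 110.3 against 62.1 CPM in Xbp1dIEC and 126 against 59.5 CPM in WT. Among receptors Cd300lf was higher, at 21.5 against 1.85 CPM and 28.3 against 5.06 CPM, and Lilrb4a was higher in Xbp1dIEC alone. Cd274, which encodes PD-L1, was higher by the fold and Cd86 and Cd200 were lower in both. Cr2 and the NF-kappaB inhibitors Nfkbia and Nfkbid were lower in both, Nr4a1 was lower in WT, and Pik3cd was higher in Xbp1dIEC. Of the genes past the fold, Cd300lf, Lilrb4a and Cd274 met the 10 CPM minimum through B-1 cells alone. Pag1, Cr2 and Nr4a1 met it through B-2 cells alone, so their calls say nothing beyond their own values.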

How the data were processed

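The deposited values were counts of unique molecular identifiers (UMIs) per gene and cell barcode, whole numbers without normalization. Per the labels' protocols, 8700 cells per pool were loaded on a 10x Chromium and sequenced as 3′ v2 libraries on an Illumina HiSeq. Cell Ranger 2.2.0 and Seurat 2.3.0 were used with mm10, per the submitters' processing notes; gene annotation: not given in the sources used here. Barcodes needed at least 500 UMIs, at least 200 genes and a mitochondrial share under 10%, and 115 Xbp1dIEC and 140 WT doublets called with scrublet in scanpy 1.11.5 (expected rate 5%) were removed. Cells were classed by marker UMIs, and CPM were computed from UMIs summed per class. Intervals were exact (Poisson, conditional binomial or Clopper-Pearson, scipy 1.17.1). Log2 ratios had 1 CPM added, and their intervals had none added. Cells were thinned to 2000 UMIs by sampling without replacement, which no cell was too shallow for. The ratios, their intervals and the thinning were tested on simulated Poisson counts, which leave out gating, doublet calls and spread between cells. Thinned Cd24a UMIs in B-1 cells had a variance over mean of 1.59 in Xbp1dIEC and 1.63 in WT, wider than Poisson counts. With 1 library per genotype no test was made. The members and the 5 gene lists (inhibitory signalling, other inhibitory receptors, ligands and ligand makers, activating antigen receptor genes, tolerance and feedback genes) were chosen with earlier results of these data known. Named genes were the members, the lists, the 8 highest and lowest by Cd5 detection and the 5 most like Cd24a or Siglecg; the examples from the lists were chosen after their values were seen. Itgam was left out because 2 gene IDs share its symbol. Ensembl IDs were matched to GENCODE M21.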

Additional observations from a re-analysis of the deposited data

Results flagged for a closer look

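The ratio of B-1 over B-2 cells had opposite signs in the 2 libraries for 2 of the 7 members. For Cd24a the log2 ratio was -0.88 in Xbp1dIEC and 0.27 in WT, and for Cd22 it was 0.27 in Xbp1dIEC and -0.28 in WT. The interval of each of the 4 ratios, which covers counting error only, lay on one side of 0. Of the 4 ratios only that of Cd24a in Xbp1dIEC was past 1.5-fold. The WT ratio of Cd24a was -0.018 with the gates on thinned cells. For Cd22 the ratio nearest 0 among the alternative settings was 0.09 in Xbp1dIEC and -0.06 in WT. With 1 library per genotype the difference between the libraries was not tested. B-1 cells differed between the libraries in the share with 5% or more mitochondrial UMIs, 30.4% in Xbp1dIEC and 10.9% in WT, and in the numbers of cells in the 2 states, and the part of either in the opposite signs was not tested.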

How the results depend on the processing

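No paired analysis was possible because each genotype had 1 library, and for the same reason no library could be left out. Over 48 results and 469 alternative values, 427 stayed within the counting interval of the reported value, 42 moved outside it, and no ratio called past 1.5-fold changed sign. Cd24a in Xbp1dIEC over WT B-1 cells, -1.19, was -0.997 with the gates on all kept cells, -0.98 with a mitochondrial limit of 5%, -1.02 with a gate of 3 UMIs, -0.90 with gates on thinned cells and -0.92 with the 2 states weighted equally. Cd24a in B-1 over B-2 cells in Xbp1dIEC, -0.88, was -0.67 with the mitochondrial limit of 5% and -0.72 with median ratio scaling. In WT this ratio, 0.27, was 0.11 with the gate of 3 UMIs, -0.018 with gates on thinned cells and 0.44 with median ratio scaling, so its sign depended on the gate. Cd24a in Cd5-detected over Cd5-negative Xbp1dIEC B-1 cells, 1.04, was 0.41 with gates on thinned cells. The lower call by 1.5-fold in B-1 cells was lost for Cd72 with the mitochondrial limit of 5% (-0.42) and for Cd72 (-0.44) and Ctla4 (-0.55) with 10 CPM added, and that of Cd24a in Folr2 macrophages with gates on thinned cells (-0.49). For the other 41 results, 31 of 401 alternative values moved; Btla in B-1 cells, -0.36, was -0.024 with gates on thinned cells, and Cd22 in B-1 over B-2 cells in WT, -0.28, was -0.06 with the gates on all kept cells. Equal state weights and leaving out cycling cells or the Cd5-detected cell with most Cd24a UMIs were chosen after seeing the data. Depth limits Cd5, Ctla4 and Cd72, which had 27 to 72 UMIs in B-1 cells of a library.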
